A study of Mus musculus with 6 samples.

Results

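Radial glia are the neural stem cells that line the ventricles of the embryonic brain, and intermediate progenitors are the shorter-lived dividing cells they give rise to on the way to neurons. Radial glia keep their identity through transcription factors such as Sox2, Pax6 and Emx2, carry the intermediate filaments vimentin and nestin along a fibre that spans the tissue, and express the glial proteins Fabp7 and Slc1a3. In the dorsal forebrain the step to an intermediate progenitor is accompanied by the proneural factor Neurog2, the zinc finger factor Insm1 and the T-box factor Eomes. The list examined here holds 10 such genes, 7 for radial glia (Vim, Nes, Pax6, Sox2, Fabp7, Slc1a3 and Emx2) and 3 for intermediate progenitors (Eomes, Neurog2 and Insm1). They were chosen by name, and every RefSeq ID that a gene table assigned to one of these symbols was kept. This gave 9 IDs of the 23485 in the count tables, 1 each for 9 genes. No ID was matched to Pax6, which is not analysed here.

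RNA was taken from whole brains of wild-type C57BL/6 embryos at E15.5, sexed by the presence of testicular cords. Each of the 3 samples per sex pooled RNA from several embryos. No allele, agent or treatment distinguished the groups, so sex was the one comparison. The labels do not tie samples to litters, and a pool averages its embryos, so p-values measure the spread between pools. In whole-brain RNA, fewer cells of a type and less RNA per cell cannot be told apart.

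Totals were 4908565 to 10294443 counts per sample. Male sample 1 stood apart from the other male samples (chi-square per degree of freedom 34.4 and 44.9, against 9.03 to 13.8 for the other pairs of 1 sex), and male samples 1 and 2 had 6743 and 6280 IDs at 0 against 4120 to 5183 in the others. Without male sample 1, 0 members were called by edgeR, 1 (Sox2, log2 fold change 0.40) was under an unadjusted p of 0.05, and the median log2 fold change of the tested members was 0.06. Without male sample 2 these were 0, 0 and 0.07. Xist and the Y-linked genes Ddx3y and Kdm5d matched the labelled sex in every sample. Of the neuron markers, Tubb3, Map2 and Stmn2 had 427.8 CPM or more in every sample, whereas the IDs matched to Dcx, Bcl11b and Snap25 were at 0 to 5.20 CPM (CPM is the count scaled to a common library total with TMM factors). Transcripts typical of tissue outside the neural tube were also abundant. Myh3, the embryonic skeletal muscle myosin, had 2601 ± 171.1 CPM in females against 2146 ± 260.8 CPM in males (mean ± SD of 3 samples). The summed level of 6 IDs of meningeal and fibroblast genes (Col1a1, Col1a2, Col3a1, Lum and Dcn) was 17470 to 25760 CPM per sample. Testing was limited to the 13374 IDs that reached 10 counts in any sample, and 4 of them were called between the sexes at an adjusted p under 0.05 by edgeR (0.0299%).

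Among the members, 8 IDs passed that filter, 6 of radial glia and 2 of intermediate progenitors, and the promoters of the 3 that the results turn on are given first. Sox2 had the largest difference between the sexes, and Fabp7 and Slc1a3 were the pair of members whose levels were most alike over the samples. The windows come from RefSeq (GRCm38.p6, a later build than that of the counts) and run from 250 bases before to 50 after the annotated start. They lie at chr3:34649745-34650044 on the plus strand for Sox2, chr10:57784673-57784972 on the plus strand for Fabp7 and chr15:8710758-8711057 on the minus strand for Slc1a3. Capitals mark the E-box CANNTG, the short motif bound by basic helix-loop-helix factors such as Neurog2.
Sox2: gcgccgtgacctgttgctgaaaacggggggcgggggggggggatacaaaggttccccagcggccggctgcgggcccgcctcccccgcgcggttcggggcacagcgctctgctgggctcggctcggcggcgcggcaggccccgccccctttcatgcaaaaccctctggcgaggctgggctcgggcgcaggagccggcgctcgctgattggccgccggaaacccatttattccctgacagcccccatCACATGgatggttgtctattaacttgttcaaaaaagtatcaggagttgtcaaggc
Fabp7: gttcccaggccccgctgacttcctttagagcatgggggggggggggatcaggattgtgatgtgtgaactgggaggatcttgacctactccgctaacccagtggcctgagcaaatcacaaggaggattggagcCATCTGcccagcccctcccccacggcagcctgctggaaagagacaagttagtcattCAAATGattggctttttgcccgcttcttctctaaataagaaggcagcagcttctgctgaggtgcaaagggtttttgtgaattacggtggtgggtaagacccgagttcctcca
Slc1a3: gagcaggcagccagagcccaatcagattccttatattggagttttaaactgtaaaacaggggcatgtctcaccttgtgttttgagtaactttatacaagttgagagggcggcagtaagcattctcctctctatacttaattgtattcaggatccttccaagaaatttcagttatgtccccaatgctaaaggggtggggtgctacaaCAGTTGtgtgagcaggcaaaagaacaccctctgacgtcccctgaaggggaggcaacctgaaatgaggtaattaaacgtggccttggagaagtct

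The Fabp7 window held 2 E-boxes and the Sox2 and Slc1a3 windows 1 each, a motif found in 72.3% of the 32851 windows in the table and in 4 of the 10 windows of the members (9 genes, none for Insm1). The CCAAT box, CCAAT on either strand, was present in all 3 windows, with 1 match in Sox2, 2 in Fabp7 and 3 in Slc1a3, against 37.4% of all windows and 7 of the 10 member windows with at least 1. GC content was 66.3% in the Sox2 window, 54.0% in Fabp7 and 45.3% in Slc1a3, so these members have little in common in base composition. A letter match is a description and not evidence of binding.

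The first question was how strongly each marker was expressed. Levels of different genes were compared per kilobase (CPM divided by the longest annotated protein-coding transcript), as mean ± SD over all 6 samples. Vim, the intermediate filament protein vimentin, was the most abundant at 783 ± 41.2 CPM per kb. Fabp7, the brain fatty acid binding protein, followed at 370.2 ± 69.8 CPM per kb. Nes, the intermediate filament nestin, had 86.2 ± 7.06 CPM per kb and Slc1a3, the glial glutamate transporter GLAST, had 56.9 ± 5.61. Sox2, a transcription factor of neural stem cells, had 39.8 ± 7.55 CPM per kb. Both intermediate progenitor genes with a level stood lower, Insm1 at 18.1 ± 1.84 and Neurog2 at 17.2 ± 2.55 CPM per kb. Emx2, a homeobox factor of the dorsal forebrain, was the lowest of the tested members at 6.73 ± 1.18 CPM per kb.

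In each sample, Vim was 1.75 to 2.52 times Fabp7 and Fabp7 was 3.24 to 5.69 times Nes on the per-kilobase scale. The order of Slc1a3 above Sox2 also held within all 6 samples (1.23 to 1.91 times), although their ranges over samples overlapped. Insm1 and Neurog2 could not be ordered, since Insm1 was the higher in 4 of 6 samples and the ratio ran from 0.843 to 1.34. Vim alone made up 56.5% to 60.4% of the summed CPM of the 6 radial glia IDs and Nes 16.3% to 20.3%. Vimentin is also a filament of fibroblasts, meninges and vessels, and nestin is also made by embryonic muscle, so these sums are not a measure of radial glia alone. The part of those tissues in the Vim and Nes levels was not tested.

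Eomes (NM_010136; NCBIM37 chromosome 9, 118387330 to 118395250, plus strand), the defining factor of cortical intermediate progenitors, was listed at 0 counts in 5 samples and had 1 count in male sample 2. Counting error alone leaves room for 3 counts behind a value of 0, or 0.291 to 0.611 CPM depending on the sample. RefSeq gives Eomes more than 1 transcript, and 1 of them was matched here, so the value belongs to that ID and says nothing firm about the gene. How reads shared by transcripts of a gene were counted is not stated in the sources used here.

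**Figure D1:**
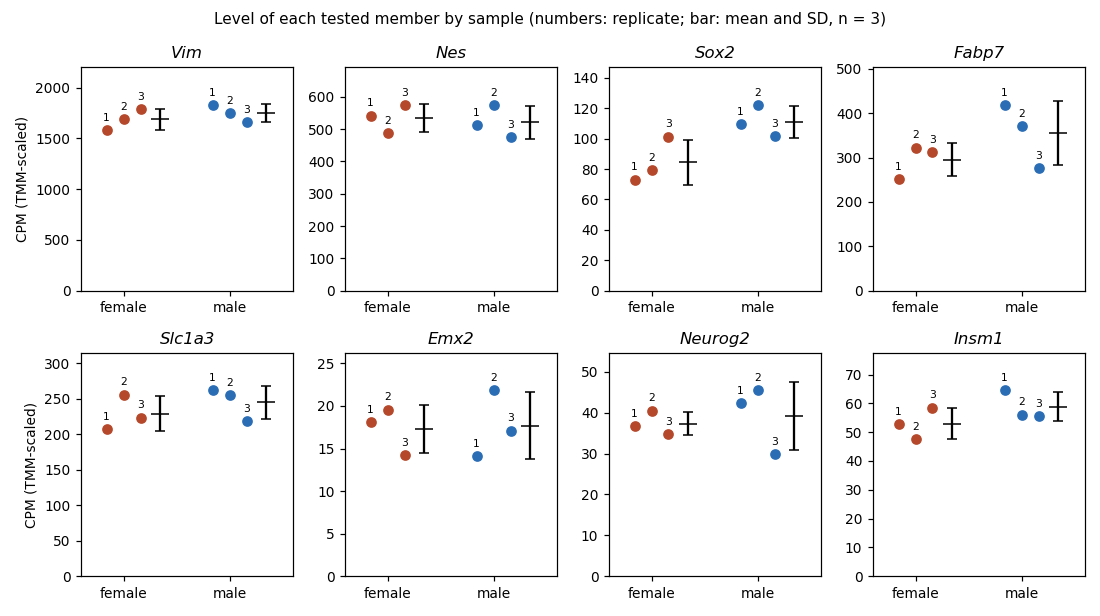
Level of the 8 tested members in each sample, in CPM on TMM-scaled totals (y axes start at 0), with points numbered by replicate and the black bar giving mean and SD of 3 samples per sex. Sox2 is the single panel in which every male sample (101.5 to 122.3 CPM) lies above every female sample (73.1 to 101.3 CPM), by a narrow margin.

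Whether radial glia transcription factors differ between male and female brains was asked next. Sox2 (NM_011443; NCBIM37 chromosome 3, 34548927 to 34551383, plus strand) was counted 451, 396 and 992 times in the female pools 1 to 3 and 1057, 800 and 1014 times in the male pools 1 to 3. In CPM these were 73.1, 79.1 and 101.3 in females and 109.4, 122.3 and 101.5 in males. Female samples 1 and 2 were the low values, whereas female sample 3 and male sample 3 were nearly equal. Means were 84.5 ± 14.9 CPM for females and 111.1 ± 10.5 CPM for males (SD, n = 3/sex). The fitted log2 difference was 0.39 (SE 0.15, 95% interval 0.07 to 0.71). Sox2 had an unadjusted p of 0.0209 and an adjusted p of 0.378 over all tested IDs by edgeR, so it was not called.

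Single pools decided whether Sox2 was under an unadjusted p of 0.05. The edgeR p-value was 0.104 without female sample 1 (log2 fold change 0.29). It was 0.0692 when female sample 2 was left out and 0.0766 when male sample 2 was. Without female sample 3 the log2 fold change was 0.56, with an edgeR adjusted p of 0.127. Its direction was the same in all 18 alternatives run. Sox2 lies within the long non-coding gene Sox2ot (NR_015580; NCBIM37 chromosome 3, 34003360 to 34581541) on the same strand, so reads of both genes cannot always be separated. Sox2ot had 31.9 CPM in females and 32.5 CPM in males, with a log2 fold change of 0.02 (SE 0.21; edgeR adjusted p 0.979).

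Emx2 (NM_010132; NCBIM37 chromosome 19, 59533180 to 59539847, plus strand) had 18.2, 19.6 and 14.2 CPM in female samples 1, 2 and 3 and 14.1, 21.9 and 17.1 CPM in male samples 1, 2 and 3. Its lowest values came from 1 pool of each sex, and the sexes overlapped throughout. The log2 fold change was 0.03 (SE 0.22, 95% interval -0.44 to 0.51; edgeR adjusted p 0.967), and it ran from -0.13 without male sample 2 and -0.09 without female sample 3 to 0.13 without female sample 2 and 0.17 without male sample 1. Counts of Emx2 were 98 to 171 per sample. Its divergent antisense neighbour Emx2os (NR_002863; NCBIM37 chromosome 19, 59499594 to 59533125, minus strand) was lower in every male sample than in every female sample, at -0.46 (SE 0.23) on the log2 scale with edgeR's adjusted p at 0.454. Pax6os1, antisense to Pax6, had 2 to 10 counts per sample.

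The filament genes were the steadiest of the members. Vim (NM_011701; NCBIM37 chromosome 2, 13495554 to 13504453, plus strand) had 1584, 1690 and 1787 CPM in female samples 1, 2 and 3 and 1832, 1751 and 1660 CPM in male samples 1, 2 and 3. Its highest sample was 1.16 times its lowest. The log2 fold change was 0.05 (SE 0.12, 95% interval -0.20 to 0.30), and the edgeR adjusted p was 0.892. It was 0.01 when female sample 1 or male sample 1 was left out and 0.10 when female sample 3 was. Only 1.77% of the tested IDs had a smaller SD of log2 CPM over the 6 samples than Vim (0.076).

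Nes (NM_016701; NCBIM37 chromosome 3, 87775000 to 87784373, plus strand) had 541.9, 486.8 and 574.3 CPM in female samples 1, 2 and 3 and 513.1, 575.8 and 474.9 CPM in male samples 1, 2 and 3. Each sex thus held a high pool (574.3 and 575.8 CPM) and a low pool (486.8 and 474.9 CPM). With a log2 fold change of -0.04 (SE 0.12, 95% interval -0.30 to 0.23; edgeR adjusted p 0.930), Nes was below 0, but its sign was not stable, being 0.05 with length and GC trends removed, 0.03 without female sample 3 and 0.04 without male sample 3. It was -0.10 and -0.11 when female or male sample 2 was left out. As a male over female ratio, the intervals ran from 0.872 to 1.23 for Vim and from 0.811 to 1.17 for Nes.

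Fabp7 and Slc1a3, the glial effector genes, were more variable. Fabp7 (NM_021272; NCBIM37 chromosome 10, 57504687 to 57508256, plus strand) had 252.0, 322.8 and 312.2 CPM in female samples 1, 2 and 3 and 419.4, 371.5 and 277.0 CPM in male samples 1, 2 and 3. Male sample 3 fell between female samples, so the sexes overlapped despite means of 295.6 CPM ± 38.2 and 356 CPM ± 72.5 (SD, n = 3 each). Its log2 fold change was 0.27 (SE 0.16, 95% interval -0.07 to 0.61; edgeR adjusted p 0.522). This value depended on single pools, being 0.16 without female sample 1, and 0.13 or 0.43 when male sample 1 or 3 was left out.

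For Slc1a3 (NM_148938; NCBIM37 chromosome 15, 8584124 to 8660764, minus strand) the levels were 206.9, 255.7 and 223.5 CPM in female samples 1, 2 and 3 and 262.1, 255.0 and 218.6 CPM in male samples 1, 2 and 3. Female sample 2 matched the upper male values and male sample 3 matched the lower female ones. The log2 fold change was 0.10 (SE 0.13, 95% interval -0.17 to 0.38), with an edgeR adjusted p of 0.789. It ran from 0.03 without female sample 1 and 0.05 without male sample 1 to 0.18 without female sample 2 and 0.19 without male sample 3, and was 0.24 with length and GC trends removed.

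Intermediate progenitor genes showed the same overlap between the sexes. Neurog2 (NM_009718; NCBIM37 chromosome 3, 127336054 to 127338549, plus strand) had 36.8, 40.6 and 34.8 CPM in female samples 1, 2 and 3 and 42.4, 45.6 and 29.8 CPM in male samples 1, 2 and 3. Male pools held both the highest and the lowest value. The log2 fold change was 0.07 (SE 0.18, 95% interval -0.32 to 0.46; edgeR adjusted p 0.904), and it was 0.25 without male sample 3 and -0.04 without male sample 2. Insm1 (NM_016889; NCBIM37 chromosome 2, 146047657 to 146050752, plus strand) had 52.8, 47.5 and 58.5 CPM in female samples 1, 2 and 3 and 64.6, 56.1 and 55.6 CPM in male samples 1, 2 and 3. Its log2 fold change was 0.15 (SE 0.14, 95% interval -0.16 to 0.46; edgeR adjusted p 0.708). For Insm1 it was 0.07 to 0.24 when 1 sample was left out, lowest without female sample 2 or male sample 1 and highest without female sample 3, and 0.00 with length and GC trends removed.

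**Figure D2:**
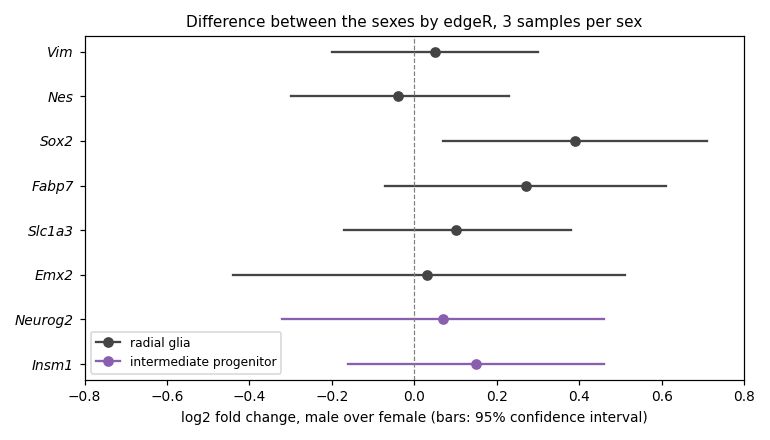
Log2 fold change of male over female (x axis) for the 8 tested members by edgeR, with bars for the 95% confidence interval and colours for the progenitor class. The interval of Sox2 (0.07 to 0.71) is the only one that does not span 0, before adjustment for the number of IDs tested.

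As a group, 0 of the 8 tested members were called between the sexes by edgeR, beside 0.0299% of all tested IDs. At an unadjusted p under 0.05 there was 1 of 8, Sox2, and the share over all tested IDs was 11.5%. The CPM of the sexes did not overlap for 1 of 8 members against 17.1% of all tested IDs. DESeq2 also called 0 members, with 1 at an unadjusted p under 0.05. The fitted value was above 0 for 7 of the 8 members, against 49% of all tested IDs, and their median log2 fold change was 0.09 beside -0.01 over all tested IDs. Signs of Vim, Nes, Emx2 and Neurog2 turned in at least 1 alternative, so this count of directions is a description of small values. The upper limits of the male over female ratio ran from 1.17 for Nes to 1.52 for Fabp7 and 1.63 for Sox2.

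The spread of the members between pools was close to that of other IDs of their abundance. Their median SD of log2 CPM over the 6 samples was 0.183, against 0.306 over all tested IDs and 0.198 over the 6653 IDs at least as abundant as Emx2, the lowest tested member. Sox2 had the largest SD of the members, 0.283, and Fabp7 the next, 0.269.

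Whether the members moved together over the samples was examined with Pearson's r on log2 CPM (prior count 2) for the 28 pairs of tested members. The median r was 0.32, against 0.00 over all 89425251 pairs of tested IDs and 0.03 over pairs of IDs at least as abundant as Emx2. Of the 28 pairs, 23 had an r above 0 (82.1%, against 49.8% of all pairs and 51.8% among these abundant IDs). An r above 0.5 was found for 10 (35.7%, against 20.2% and 24.1%). Pairs above 0.8 numbered 2 (7.14%), near the 5.35% of all pairs and the 7.51% among abundant IDs. Pairs share members and all rest on the same 6 pools, so these shares are a description. The median was 0.27 among the 15 radial glia pairs and 0.41 among the 12 pairs of a radial glia with an intermediate progenitor gene. With length and GC trends removed, the median was 0.63 over the 28 pairs and 0.65 over the radial glia pairs, and without male sample 2 it was 0.17 and 0.00. With the replicate number as a block these medians were 0.66 and 0.28.

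**Figure D3:**
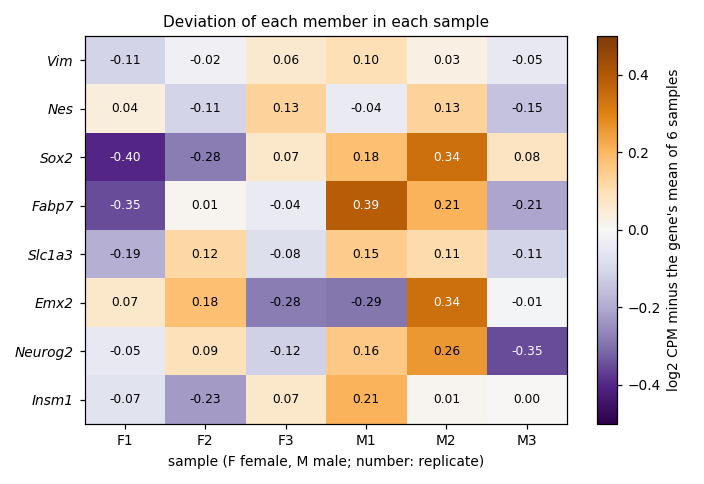
Deviation of each tested member (rows) from its own mean over the 6 samples, in log2 CPM, in each sample (columns, F female and M male by replicate number). In male sample 2 all 8 members lie above their mean, while in female sample 1 and male sample 3 only 2 do.

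Both pools with most members high were male, but the remaining male pool was among the lowest. The former are also the libraries with the most IDs at 0. In male sample 2, 8 of 8 members were above their own mean, and in male sample 1 there were 6. Male sample 3 and female sample 1 each had 2 members above the mean, and female samples 2 and 3 had 4 each. The median deviation of the radial glia members was 0.17 in male sample 2, 0.12 in male sample 1, -0.15 in female sample 1 and -0.08 in male sample 3, on the log2 scale. With the sex means removed from every gene, the median r of the members was 0.36. It was 0.17 without male sample 2 and 0.44 and 0.48 without male samples 1 and 3, so its size depended on these pools.

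Fabp7 and Slc1a3 were the most alike pair. Their r over the 6 samples was 0.91 (exact permutation test, two-sided, p = 0.00556, adjusted p = 0.156 over the 28 pairs) and Spearman's rho was 0.94 (exact permutation p = 0.0167, adjusted 0.468). Without female sample 1 and male sample 1, the pools farthest from the median of Fabp7, r was 0.82. Vim and Fabp7 had an r of 0.88 (exact permutation p = 0.0264, adjusted 0.37) and a rho of 0.83 (exact permutation p = 0.0583, adjusted 0.544), and r was 0.55 without these same pools. The third pair crossed the classes, with an r of 0.77 for Slc1a3 and Neurog2 (exact permutation p = 0.0792, adjusted 0.389) and a rho of 0.66 (exact permutation p = 0.175, adjusted 0.544). In that case r was 0.93 without female sample 1 and male sample 1. After adjustment, 0 of the 28 pairs had an exact permutation p under 0.05, and 2 were under it unadjusted for r.

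The 3 lowest pairs all held Emx2. Its r with Insm1 was -0.68 (exact permutation p = 0.133, adjusted 0.389) and rho was -0.66 (exact permutation p = 0.175, adjusted 0.544), and r was -0.85 with the sex means removed. Without female sample 3 and male sample 1, the pools farthest from the median of Emx2, r was -0.01. Few pools with a narrower range of Emx2 are then left, so this r cannot show what the relation rested on. With Vim its r was -0.48 (exact permutation p = 0.351, adjusted 0.756) and rho -0.49 (exact permutation p = 0.356, adjusted 0.665), and r was -0.28 without female sample 1 and male sample 1. Fabp7 and Emx2 had an r of -0.15 (exact permutation p = 0.751, adjusted 0.911), a rho of -0.09 (exact permutation p = 0.919, adjusted 0.99) and an r of 0.64 without the latter pools. The other pairs of Emx2 also moved when the 2 farthest pools were left out, from 0.34 to 0.95 with Neurog2, from 0.13 to 0.83 with Slc1a3, from -0.11 to 0.73 with Sox2 and from 0.03 to -0.54 with Nes. The intermediate progenitor genes Neurog2 and Insm1 had an r of 0.06 and a rho of 0.20 (exact permutation p = 0.914 and 0.714, adjusted 0.949 and 0.833). That r depended on the processing, at -0.26 with upper-quartile factors, 0.55 with length and GC trends removed, 0.87 with the replicate number as a block, -0.29 without male sample 1 and 0.35 without female sample 2.

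**Figure D4:**
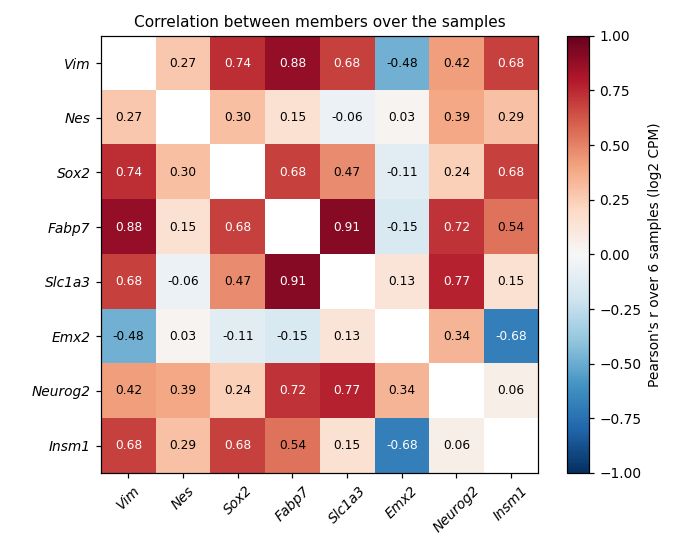
Pearson's r over the 6 samples between each pair of tested members, on log2 CPM. Vim, Fabp7, Sox2 and Slc1a3, a group picked after the values were seen, have an r of 0.47 to 0.91 with each other. Without the 2 pools farthest from the median of 1 gene of the pair, these values run from 0.07 to 0.82. The r of these genes is 0.15 to 0.77 with Neurog2 and Insm1 and -0.06 to 0.30 with Nes. Emx2 has values from -0.68 to 0.34.

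Transcripts outside the list with the most similar profiles were named by rule, among the 8322 IDs whose counts averaged 50 or more. Among the closest to the mean standardised profile of the 6 radial glia members were Vxn, Exoc5, Zfp867 and Spata2, with r from 0.974 to 0.988 over 6 samples. For Neurog2 and Insm1 together they were Mrpl34, Ubxn6, 2310011J03Rik, Ndufb8 and Hoxa5, with r from 0.984 to 0.998. Such values are not rare over 6 samples, as 134 IDs (1.61%) had an r above 0.9 with the radial glia profile and 159 (1.91%) with that of the intermediate progenitors.

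Further genes of the same cell states were read from fixed lists. Of 22 other radial glia genes, 21 were matched and 19 of their 25 IDs were tested. None of the 19 was called by edgeR (0 by adjusted p; 3 at an unadjusted p under 0.05, where the share over all tested IDs was 11.5%). Hes5 and Hes1, effectors of Notch signalling that hold back differentiation, differed by 0.77 (SE 0.21) and 0.37 (SE 0.14) on the log2 scale, male over female. Ptprz1, a receptor phosphatase of radial glia, was at -0.40 (SE 0.17). Their edgeR adjusted p-values were 0.338, 0.378 and 0.395. The paper, by its own DESeq2 fit, has Hes5 among the sex-biased targets of sex-biased microRNAs. The median over the 19 IDs was -0.02, close to that of all tested IDs, with 9 above and 10 below 0.

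For intermediate progenitors, 13 other genes had 15 IDs, of which 11 were tested and 0 called by edgeR, with 2 at an unadjusted p under 0.05 (11.5% of all tested IDs). Mfng, a glycosyltransferase that modifies Notch receptors, had a log2 fold change of 0.55 (SE 0.18) and Heg1, a transmembrane receptor, -0.44 (SE 0.13), both with an edgeR adjusted p of 0.341. The median of the 11 IDs was 0.18, with 9 above 0, against 49% of all tested IDs. Dll1 and Dll3, Notch ligands made by newborn neuronal cells, were at 0.07 and 0.18, and the proneural factor Neurog1 at 0.13.

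Marker lists of other cells were set beside the progenitor genes, and outside the sex genes none of their IDs was called by edgeR. The lists were read from this fit alone. The paper's own DESeq2 fit called more genes, and Col9a1, of the cartilage list, has primers in its RT-qPCR table. The summed CPM of the 6 radial glia IDs was 2847 ± 168.2 (SD, n = 3) in females and 2999 ± 217.9 in males, and that of the 3 intermediate progenitor IDs was 90.3 ± 2.70 and 98.1 ± 11.3. Neuron IDs summed to 2908 to 4151 CPM, highest in male samples 1 and 2, the samples with the highest progenitor sums. Of the 9 tested neuron IDs, 6 had a log2 fold change above 0 and 3 below (median 0.16), and those at an unadjusted p under 0.05 were Tubb3 at 0.39 and Gap43 at 0.58. Cycling cell IDs summed to 1942 to 2730 CPM, lowest in male sample 1, with Mki67 at -0.42 and Cdk1 at 0.38. The part of these cells in the progenitor values was not tested.

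Tissue outside the neural lineage also varied between pools. Skeletal muscle IDs summed to 2488 to 3236 CPM, with Myh3 at a log2 fold change of -0.28 and the defining factor Myod1 at 0.05. Meningeal and fibroblast IDs were lowest in female sample 2 and male sample 2 (18890 and 17470 CPM). Of the 6 tested, 2 had a log2 fold change above 0 (Col3a1 at 0.15 and Col1a2 at 0.10) and 4 below (median -0.04). Vessel IDs ranged from 401.4 to 466.6 CPM, where the 3 tested IDs had a median log2 difference of 0.06 (Cldn5 at 0.43). Choroid plexus IDs ranged from 446.6 to 735.9 CPM (Ttr at 0.38, higher in every male sample than in every female sample), and cartilage IDs from 54.5 to 185.7 CPM (Col9a1 ID NM_007740 at -0.91 and Matn1 at -0.78). Male samples 1 and 2, where most members were high, had the highest choroid plexus sums (735.9 and 655.7 CPM) and the lowest cartilage sums (54.5 and 68.7 CPM). The choroid plexus sums were mostly Ttr (698.0 and 628.4 CPM in these samples). Clic6, the other tested ID, was at 37.4 and 27.1 CPM there, within 25.1 to 37.4 CPM over all samples. The part of these tissues in the member values was not tested. Microglia IDs summed to 121.2 to 168.3 CPM (Csf1r at 0.07 and Cx3cr1 at -0.13) and oligodendrocyte precursor IDs to 164.2 to 236.2 CPM, where the 4 tested IDs had a median log2 difference of 0.05, 2 above and 2 at or below 0 (Olig1 at 0.57). Of 5 listed eye genes only Rax and Tyr were matched, and their IDs summed to 2.45 to 6.79 CPM. The lens crystallin gene Cryga, outside the list, had 84.8 CPM in females and 117.1 CPM in males, so that sum does not measure eye tissue.

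**Figure D5:**
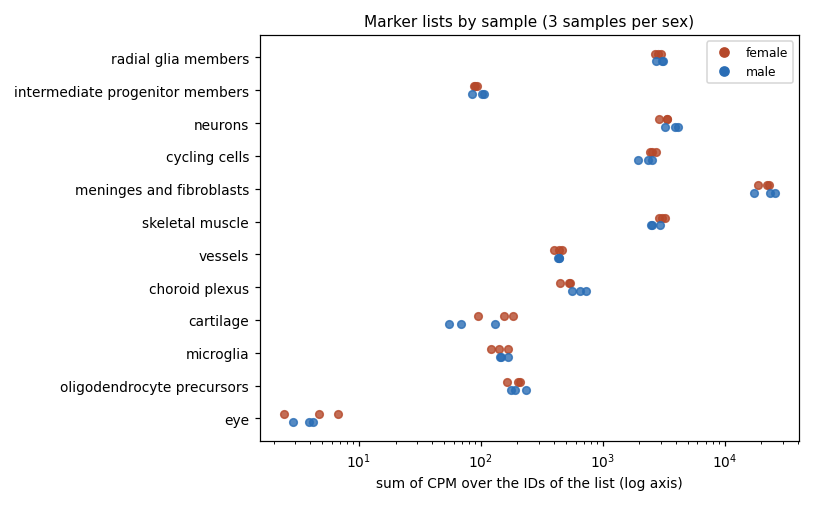
Summed CPM of the IDs of each marker list (log axis), with 1 point per sample coloured by sex. The 6 radial glia member IDs sum to 2676 to 3150 CPM, the 11 neuron IDs to 2908 to 4151 CPM (the higher in each sample) and the 6 meningeal and fibroblast IDs to 17470 to 25760 CPM, while intermediate progenitor members sum to 85.5 to 107 CPM.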

How the data were processed

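The authors trimmed reads with Trimmomatic 0.32, per the submitters' processing notes and the paper's methods. Reads were then aligned to mm9 (NCBIM37) with TopHat2 2.1.1, assembled with Cufflinks 2.2.1 and counted with featureCounts 1.5.1. The deposited values are raw counts per RefSeq transcript ID, 1 table per sample. Settings for strand, multiple alignments and overlapping transcripts are not given in the sources used here, so counts of overlapping or multi-transcript genes are uncertain. The study's DESeq2 comparison used RUVr factors, run here as alternatives. Symbols came from a RefSeq table (23355 of 23485 IDs), and positions, lengths and GC from GENCODE M1 on NCBIM37.

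The sexes were compared with edgeR's quasi-likelihood F test (edgeR 4.0.16, R 4.3.3) on TMM-scaled counts, for IDs that reached 10 counts in any sample, with Benjamini-Hochberg adjustment over all 13374 tested IDs and calls at an adjusted p under 0.05. SEs were derived from fold change and F statistic, and DESeq2 was version 1.42.0. Fits were tested on simulated data. Within a sex, sampling noise did not account for the differences between samples (chi-square per degree of freedom 9.03 to 44.9), so none was a copy. Correlations used log2 CPM and all 720 orders of the samples. The text names every member, the 3 highest and 3 lowest pairs, the 5 closest IDs per profile (1 of them is not reported here), and list genes at an unadjusted p under 0.05, or the 2 most abundant where there are none. Mentioned beyond this rule, after their values were seen, are Dll1, Dll3, Neurog1, Myod1, Map2, Stmn2, Dcx, Bcl11b, Snap25, Clic6 and Cryga. Members and lists were chosen with earlier results of these data known.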

Additional observations from a re-analysis of the deposited data

How the results depend on the processing

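Over 18 alternatives for the comparison of the sexes, the number of members called by edgeR or DESeq2 was 0 in each, and the median log2 fold change of the members ran from 0.03 to 0.19. Members at an unadjusted p under 0.05 numbered 1 in the comparison as reported and 2 (Sox2 and Fabp7) without a filter on low counts and with edgeR and 2 RUVr factors, and 0 to 2 across the fits without 1 sample. The number of all IDs called was 4 as reported, 276 without a filter, 1 with 10 or more counts in every sample, 107 with DESeq2, 370 with DESeq2 and 1 RUVr factor, 36 with edgeR and 1 RUVr factor and 483 with 2, and 4 to 51 without 1 sample, the highest with female sample 3 left out (leaving out male samples 1, 2 and 3 in turn gave 12, 8 and 7). Of 144 refitted fold changes of members, 134 kept direction and call, and 10 had the opposite sign. These were Vim at -0.01 and Emx2 at -0.02 with upper-quartile factors, Vim at -0.02, Nes at 0.05 and Neurog2 at -0.03 with length and GC trends removed, Nes at 0.03 and Emx2 at -0.09 without female sample 3, Emx2 at -0.13 and Neurog2 at -0.04 without male sample 2, and Nes at 0.04 without male sample 3. Leaving out 1 sample gave -0.11 to 0.04 for Nes and -0.04 to 0.25 for Neurog2. The median pairwise r of the members, 0.32 as reported, was 0.63 with length and GC trends removed, where the median over all pairs of tested IDs was 0.02, and 0.17 (without male sample 2) to 0.48 (without male sample 3) when 1 sample was left out. Same-numbered samples of the sexes did not deviate together (r of -0.29, -0.06 and -0.20 across IDs), which gave no sign of pairing by number. With 3 pools per sex, some of them outlying, this check cannot exclude a pairing. With the replicate number as a block, 4 IDs and 0 members were called, the median pairwise r was 0.66 and no other result changed its call. The cause of these changes was not tested. Among the tested members depth limits Emx2 most, at 98 to 171 counts per sample, and Eomes was too low to test.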
